A study of Mus musculus with 3 samples.

Results

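The genes described here are 7 components of the canonical Wnt pathway: the DNA-binding factors Lef1, Tcf7 and Tcf7l2 and the target genes Sp5, Axin2, Nkd1 and Apcdd1. They were taken by name, as every probe of the array that is not a control and carries one of these gene names, which gave 15 probes of 41174 and 7 gene names of 27745. No further probe led to a member through its accession. The names were chosen with earlier results of these data known, so that the choice is no independent evidence for a direction.

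RNA came from metanephric kidney rudiments of C57BL/6 mouse embryos at E12.5, either Fgfrl1-/- or wildtype littermates. A pool held 6 to 9 rudiments and gave 600 ng of RNA, and 3 arrays each compared 1 Fgfrl1-/- pool with 1 wildtype pool. The Fgfrl1-/- pool was marked with Cy3 and the wildtype pool with Cy5 on every array, with 0 dye swaps, so that an effect of the dye and an effect of the genotype cannot be told apart. For each probe, an array gave the log2 ratio of its Fgfrl1-/- pool to its wildtype pool. The numbers 1, 2 and 3 below stand for the arrays.

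In canonical Wnt signalling, a Wnt ligand at the cell surface stops the destruction complex from degrading beta-catenin. Beta-catenin then enters the nucleus, binds the factors of the Lef/Tcf family on DNA and switches on target genes, several of which act back on the pathway as inhibitors. In the early kidney, Wnt9b from the ureteric bud uses this route to induce Wnt4 and the first nephron precursors in the surrounding mesenchyme.

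Among the promoters examined, which were those of 6 members, the one of Sp5 carried a Lef/Tcf motif. It is shown here because Sp5 also had the largest difference of the 7 genes. The letters CTTTGAA and CTTTGAT, which do not overlap each other, were searched on both strands in RefSeq promoter windows of GRCm38.p6, each from 250 bases before to 50 bases after a start. RefSeq listed 11 such windows for 6 of the members. The motif stood in 1 of the 11 windows and in 8.7% of the 32851 windows of all genes, from which no chromosome was left out. In the Sp5 window its first base lay at position -104 from the start. The 250 bases before the start of Sp5, on the plus strand at chr2:70474673-70474922, read as follows, with the motif in capitals.
Sp5: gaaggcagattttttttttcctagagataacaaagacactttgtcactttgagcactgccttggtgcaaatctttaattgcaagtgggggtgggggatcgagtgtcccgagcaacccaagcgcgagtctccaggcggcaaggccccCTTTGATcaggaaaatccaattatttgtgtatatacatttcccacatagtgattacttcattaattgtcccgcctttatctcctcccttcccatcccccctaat
A match describes these letters only, and the absence of a match in the windows of Lef1, Tcf7, Tcf7l2, Axin2 and Nkd1 says nothing about sites elsewhere in these genes.

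Sp5, Lef1 and Tcf7 were lower in the Fgfrl1 deficient kidneys, by about 3.17-fold, 2.18-fold and 1.61-fold at their brightest probes. Apcdd1, Axin2, Nkd1 and Tcf7l2 did not pass the test in any probe. With limma's moderated test and adjustment over all probes, 3 of the 7 members had a probe with an adjusted p below 0.05 and a lower level, while 0.559% of all gene names did. By probe, 4 of the 15 were lower at this threshold, against 0.398% of all probes. Of the members, 0 were higher, against 0.407% of all gene names. At an unadjusted p below 0.05, 6 of the 15 member probes were lower and 0 were higher, and 15.9% of all probes passed this limit in either direction. At a fold change of at least 1.9 with an unadjusted p below 0.05, 2 of the 7 members were lower, namely Sp5 and Lef1, against 0.195% of gene names. The median log2 ratio was -0.18 over the 15 member probes and 0.0037 over all probes. In a rudiment, fewer cells that express a gene and less RNA per cell cannot be told apart.

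**Figure D1:**
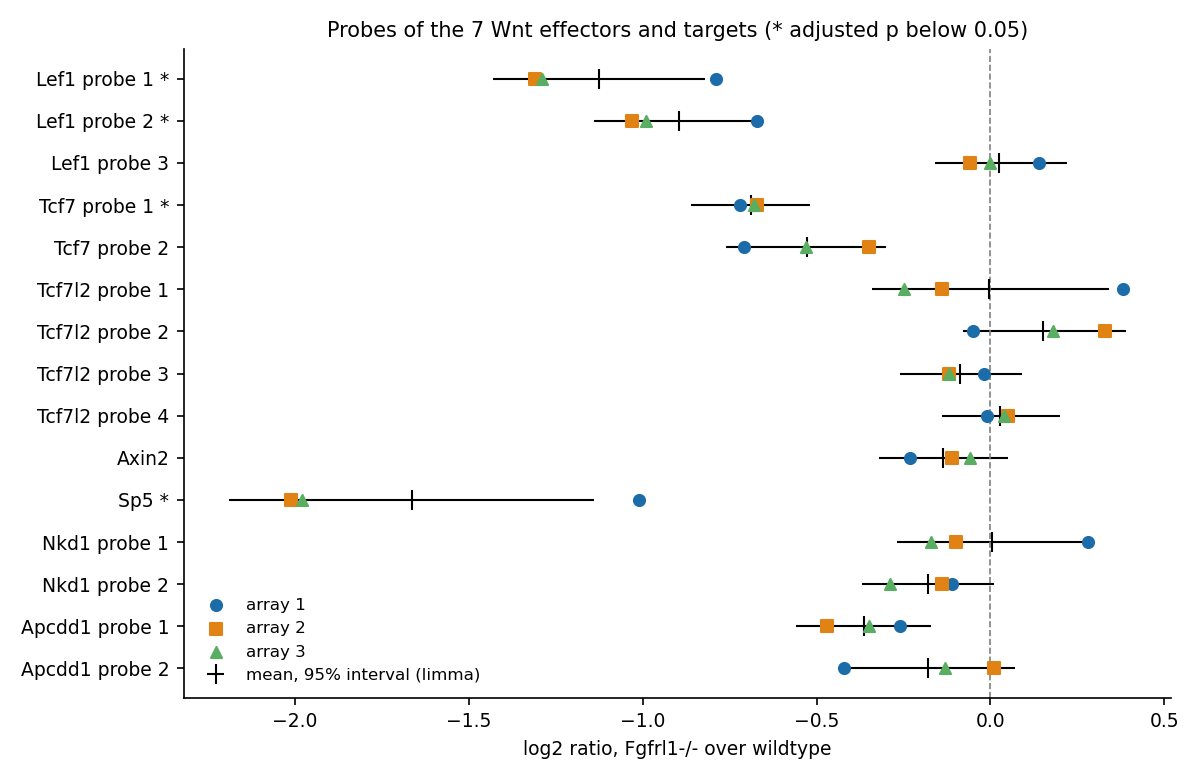
The log2 ratio of Fgfrl1-/- over wildtype is plotted on the x axis for each of the 15 probes of the 7 members, with 1 symbol per array and the limma mean with its 95% interval as a cross. The probes of a gene are numbered by brightness, an asterisk marks an adjusted p below 0.05, and 9 of the 15 probes lie below 0 on all 3 arrays, as do 19.2% of all probes of the array.

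Of the 15 probes, 12 were well above background in both channels on all 3 arrays, and no member spot was saturated or marked as an outlier. Each probe was a single spot of 60 bases. Where a gene had several probes they are numbered here by their brightness. Brightness depends on the probe as well as on the transcript, and levels are therefore compared between pools for the same probe, never between probes.

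Lef1, which brings beta-catenin to DNA through its HMG box, is expressed where mesenchyme turns into epithelium. Its probe 1 at chr3:131213273-131213332 on mm8 had a raw brightness of 831, 2171 and 1980 in the wildtype pools of arrays 1, 2 and 3, over a local background of 48, 48 and 50. In the Fgfrl1-/- pools of the same arrays it was 544, 375 and 548, over 18, 29 and 24. Raw brightness differs between dyes and arrays, and after normalization the log2 level ran from 10.05 to 10.51 in the wildtype pools and from 9.21 to 9.26 in the Fgfrl1-/- pools. All Fgfrl1-/- pools therefore lay below all wildtype pools. The log2 ratio was -0.79, -1.31 and -1.29, with a mean of -1.13 ± 0.29 (SD, n = 3 arrays; limma adjusted p = 0.0416).

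Lef1 probe 2 spans more than 1 exon, since the files place its 60 bases within chr3:131194088-131212249 on mm8. Its raw brightness was 218.5, 352 and 283.5 in the wildtype pools and 146, 72 and 79.5 in the Fgfrl1-/- pools. The normalized log2 level was 7.33, 7.16 and 7.02 in the Fgfrl1-/- pools and higher in all wildtype pools, again without overlap. The log2 ratio was -0.67, -1.03 and -0.99, with a mean of -0.90 ± 0.20 (SD, n = 3 arrays; limma adjusted p = 0.0408). Both Lef1 probes showed the same order of the arrays, with the smallest difference on array 1. Probe 1 gave a lower ratio than probe 2 on every array, by 0.12, 0.28 and 0.30 on the log2 scale. Lef1 probe 3 was not well above background in any pool, so that it gave no fold change. It lies 87795 bases from the nearest of the other Lef1 probes.

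Tcf7, also called TCF-1, is a second factor of the family with the same DNA-binding domain. Its probe 1 at chr11:52096035-52096094 on mm8 had a log2 level of 8.77, 9.22 and 9.29 in the wildtype pools. The Fgfrl1-/- pools had 8.05, 8.55 and 8.61, and the groups did not overlap. The log2 ratio was nearly equal on the arrays, -0.72, -0.67 and -0.68, with a mean of -0.69 ± 0.029 (SD, n = 3 arrays; limma adjusted p = 0.0379). Tcf7 probe 2 at chr11:52096752-52096811, whose start lies 717 bases from that of probe 1, had log2 ratios of -0.71, -0.35 and -0.53. Its mean of -0.53 ± 0.18 (SD, n = 3 arrays) did not pass, with a limma adjusted p of 0.0844. Its 3 ratios were nevertheless all below 0, and its levels in the 2 genotypes did not overlap. With slide as a fixed block, this probe passed with -0.57 (limma adjusted p = 7.17e-05). That fit takes its spread from arrays 2 and 3 alone and called 4649 probes lower and 5632 higher.

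Tcf7l2, or TCF-4, is the third factor measured here and is active in many epithelia. The log2 ratio of its probe 1 at chr19:55986346-55986405 on mm8 was 0.38, -0.14 and -0.25 on arrays 1, 2 and 3. Probe 2 gave -0.05, 0.33 and 0.18, and probe 3 gave -0.02, -0.12 and -0.12. Probes 1 and 2, whose starts lie 1126 bases apart, thus had opposite signs on each array, and the levels of the 2 genotypes overlapped for all Tcf7l2 probes. The limma means with their 95% intervals were -0.00 (-0.34 to 0.34) for probe 1, 0.15 (-0.08 to 0.39) for probe 2 and -0.09 (-0.26 to 0.09) for probe 3. The intervals of these probes contain neither the mean of the brightest Lef1 probe nor that of the brightest Tcf7 probe. Probe 4 was well above background in 1 Fgfrl1-/- pool and in 0 wildtype pools, so that no fold change is given.

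Sp5 encodes a zinc finger transcription factor that is switched on by Wnt signals in many embryonic tissues. Its only probe, at chr2:70278470-70278529 on mm8, had a raw brightness of 215, 752 and 566 in the wildtype pools, over a local background of 60.5, 47 and 46.5. In the Fgfrl1-/- pools the raw brightness was 100, 75 and 77, over 17.5, 29.5 and 21. The signal of the Fgfrl1-/- pools was thus low, but well above background by the scanner's flag on all 3 arrays. After normalization the log2 level was 7.87, 9.19 and 8.91 in the wildtype pools and 6.87, 7.18 and 6.94 in the Fgfrl1-/- pools, and the groups did not overlap. The log2 ratio was -1.01, -2.01 and -1.98, with a mean of -1.66 ± 0.57 (SD, n = 3 arrays; limma adjusted p = 0.0488). By its mean ratio, the Sp5 probe stood at place 12 from the lowest of the 41174 probes.

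Apcdd1 is a membrane protein that inhibits Wnt signalling at the cell surface and is itself a target. The log2 level of its probe 1 at chr18:63079017-63079076 on mm8 was 11.19, 11.59 and 11.39 in the wildtype pools and 10.93, 11.12 and 11.04 in the Fgfrl1-/- pools. The groups did not overlap, but the difference was small. The log2 ratio was -0.26, -0.47 and -0.35 with a mean of -0.36, a 95% interval of -0.56 to -0.17 and a limma adjusted p of 0.107. Apcdd1 probe 2 was well above background in 1 Fgfrl1-/- pool and 2 wildtype pools, with log2 ratios of -0.42, 0.01 and -0.13. With slide as a fixed block, which takes its spread from arrays 2 and 3 alone and called 4649 probes lower and 5632 higher, both Apcdd1 probes passed, with -0.34 (adjusted p = 0.00215) and -0.24 (adjusted p = 0.0169).

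Axin2 is a scaffold protein of the destruction complex and a widely used reporter of the pathway. Its probe at chr11:108766756-108766815 on mm8 had a log2 level of 8.42, 8.40 and 8.46 in the wildtype pools. The Fgfrl1-/- pools had 8.19, 8.28 and 8.40. The log2 ratio was -0.23, -0.11 and -0.06, below 0 on each array, with a mean of -0.14, a 95% interval of -0.32 to 0.05 and a limma adjusted p of 0.455. The interval does not reach the ratio of the brightest Sp5, Lef1 or Tcf7 probe on any array.

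Nkd1 binds Dishevelled and restrains the pathway in cells that receive a Wnt signal. Its probe 1 at chr8:91482365-91482424 on mm8 gave log2 ratios of 0.28, -0.10 and -0.17, with a mean of 0.00 and a 95% interval of -0.27 to 0.27. Its probe 2, with a start 257 bases away, gave -0.11, -0.14 and -0.29, with a mean of -0.18, a 95% interval of -0.37 to 0.01 and a limma adjusted p of 0.341. The probes differed by 0.39, 0.03 and 0.13 on arrays 1, 2 and 3, so that the disagreement lay mainly on array 1.

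Across the members, all 3 Fgfrl1-/- levels lay below all 3 wildtype levels for 7 of the 15 probes, against 7.18% of all probes with a value on every array. These were Lef1 probes 1 and 2, both Tcf7 probes, and the brightest probes of Sp5, Apcdd1 and Axin2. For Axin2, the highest Fgfrl1-/- and the lowest wildtype level were both 8.40 after rounding. At the brightest probes, the order of the ratios from the lowest upward was Sp5, Lef1, Tcf7 on each of the 3 arrays. On array 1 these 3 genes differed little, with -1.01, -0.79 and -0.72, whereas on arrays 2 and 3 the gaps were wider.

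**Figure D2:**
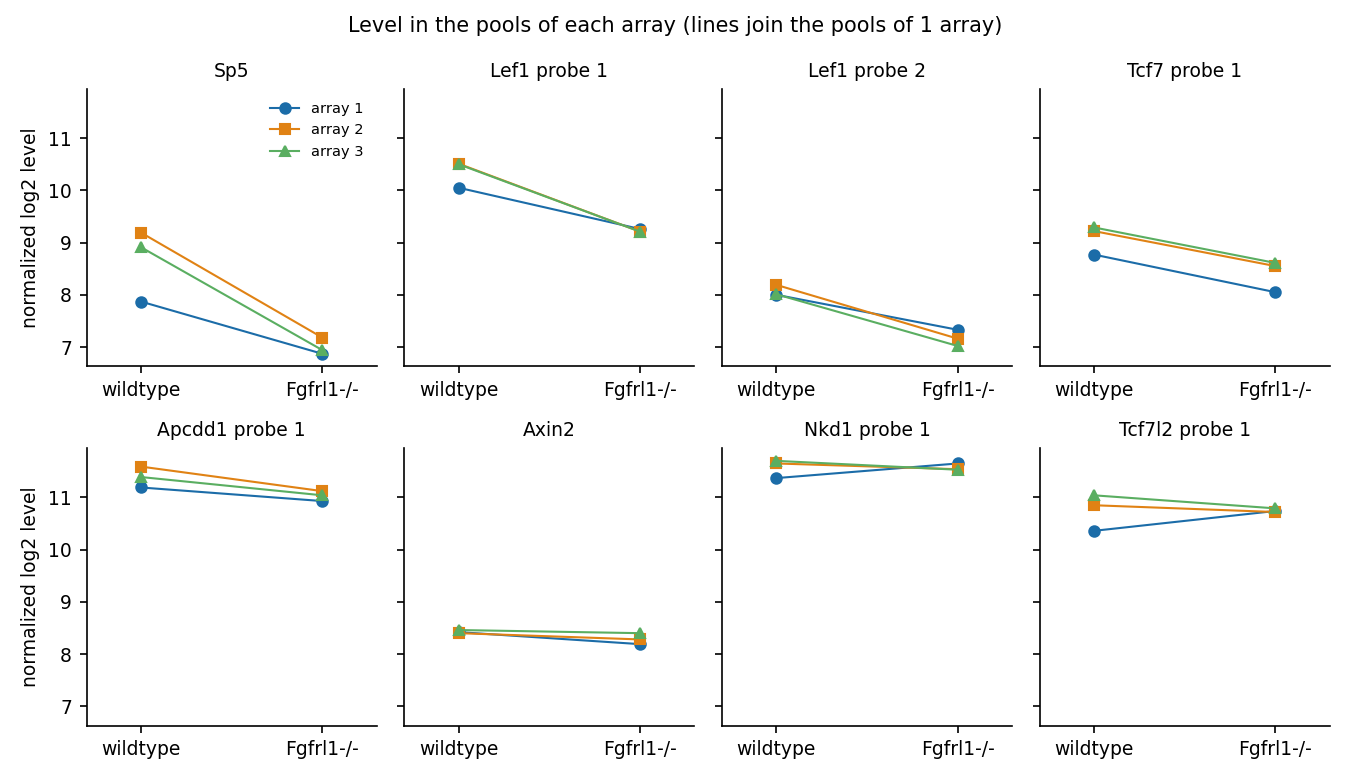
The normalized log2 level (y axis) in the wildtype and the Fgfrl1-/- pool of each array is shown for 8 member probes, and a line joins the pools of 1 array. The lines of Sp5, Lef1, Tcf7 and Apcdd1 fall on all 3 arrays, those of Nkd1 and Tcf7l2 rise on array 1 and fall on arrays 2 and 3, and heights cannot be compared between panels.

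Arrays 2 and 3 shared a slide, while array 1 came from a different slide, for which the scan had been evaluated by an older release of the scanner software. Over all probes, the log2 ratios of array 1 correlated with those of arrays 2 and 3 with an r of 0.11 and 0.22, and those of arrays 2 and 3 with an r of 0.71, as a description over probes that share an array. For Sp5, the log2 ratio was -1.01 on the first slide and -1.99 as the mean of the second. The wildtype level of Sp5 was 1.17 lower on array 1 than on arrays 2 and 3, while the Fgfrl1-/- level was 0.19 lower. For Lef1 probe 1, the wildtype level was 0.46 lower and the Fgfrl1-/- level 0.055 higher on array 1. Of the 164 probes called lower, 37.8% had their smallest fall on array 1, and the Sp5 probe took place 2 among them by the gap between the slides. For Tcf7 probe 1, the ratio was -0.72 on the first slide and -0.67 on the second. Slide, software version and pool changed together, so that they cannot be told apart.

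The calls of Sp5, Lef1 and Tcf7 rested on adjusted p-values just under the threshold. Without array 2, limma called 0 probes of any gene, with 3712 at an unadjusted p below 0.05, and the log2 ratios were -1.49 for Sp5, -1.04 for Lef1 probe 1 and -0.70 for Tcf7 probe 1 (adjusted p = 0.348, 0.335 and 0.348). Without array 3 it again called 0, with 3141 at an unadjusted p below 0.05, and the ratios were -1.51, -1.05 and -0.70 (adjusted p = 0.471 for each). Without array 1, 4172 probes were lower and 3494 higher, the log2 ratio of Sp5 was -1.99 (adjusted p = 9.98e-09), and Apcdd1 passed with -0.41 (adjusted p = 0.00231), as did Tcf7l2 probe 2 with a higher level (0.25, adjusted p = 0.0354). Across all 17 alternatives, the ratio ran from -1.35 to -0.67 for Lef1 probe 1, from -2.63 to -1.49 for Sp5 and from -0.92 to -0.61 for Tcf7 probe 1. The values nearest to 0 for Lef1 and Tcf7 were those of the mean of the probes of each gene. Without that alternative, Lef1 probe 1 came no nearer to 0 than -1.04 and Tcf7 probe 1 no nearer than -0.67. The unadjusted p of these 3 probes, or of the mean of the probes, was below 0.05 under each alternative. The quantile normalization of average intensity leaves every ratio unchanged, so that it could not alter a result.

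**Figure D3:**
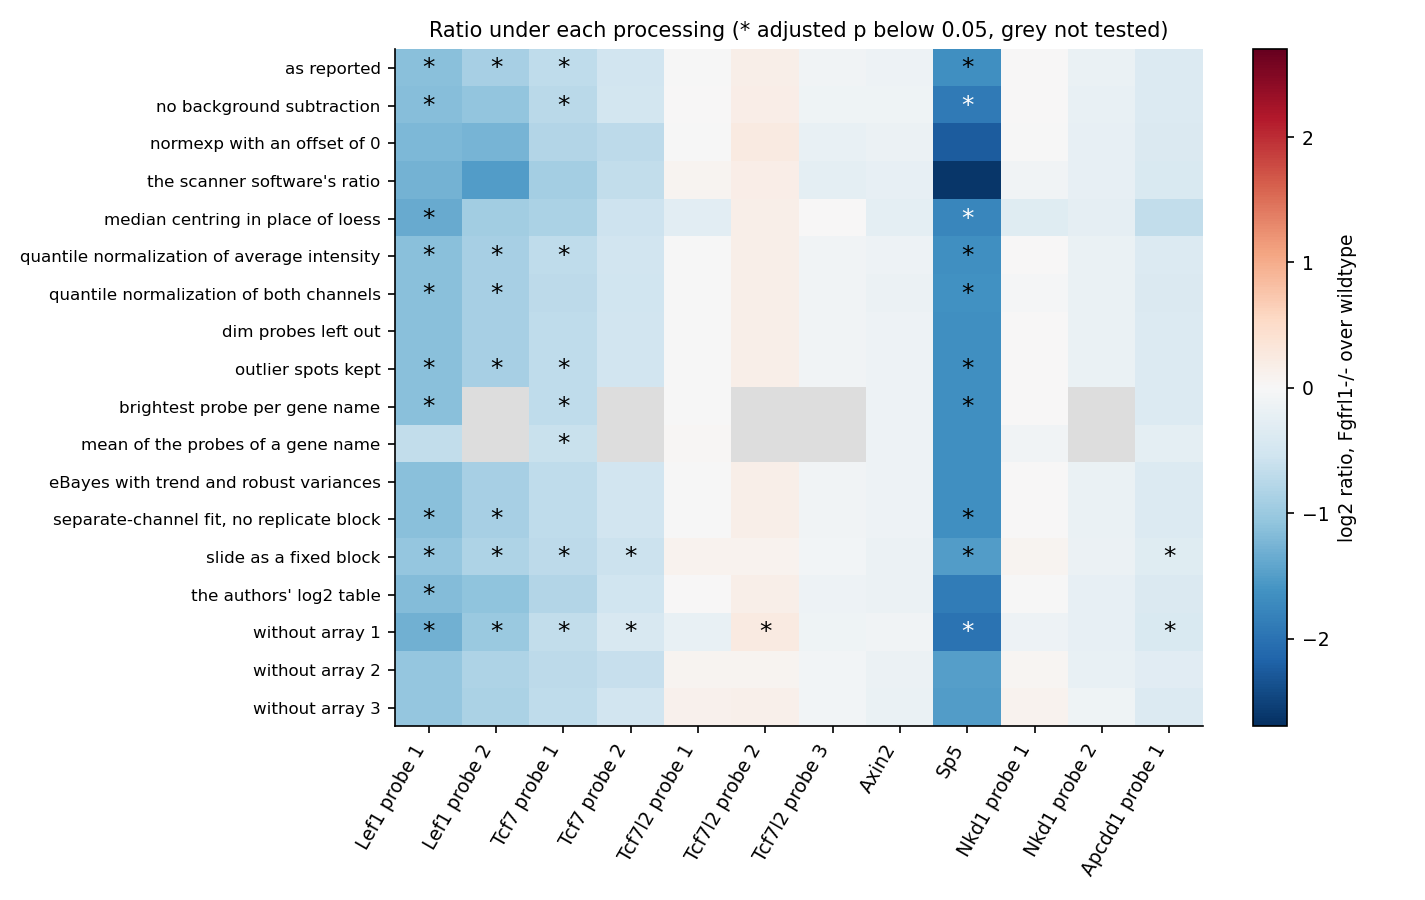
Colour gives the log2 ratio of Fgfrl1-/- over wildtype of 12 member probes (columns) as reported and under each other processing (rows), and an asterisk marks an adjusted p below 0.05. The columns of Lef1, Tcf7 and Sp5 stay blue in every row while their asterisks come and go, and in the row of the mean of the probes, the value of a gene stands under its probe 1.

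The rest of the pathway was described by lists of genes known for their roles. Over the whole array, 0.559% of gene names were called lower and 0.407% higher, and 15.9% of probes had an unadjusted p below 0.05. At these shares, 0 calls in a short list says little about that list. Of 17 other Lef/Tcf factors, beta-catenin and nuclear partners, 0 passed limma's test in either direction, with a median log2 ratio of 0.017 over 32 probes. At an unadjusted p below 0.05, 2 of these probes were lower and 5 higher. Beta-catenin itself, Ctnnb1, named after its values were seen, had 3 probes with means of 0.55 (adjusted p = 0.0527), 0.29 and 0.03. The last of these read 1.20, -0.78 and -0.32 on the arrays, so that the probes did not give 1 value for this gene.

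Of the destruction complex and Dishevelled, 24 of 25 listed genes were measured, and 0 passed, with 1 probe lower and 5 higher at an unadjusted p below 0.05 and a median of 0.01 over 50 probes. Among 17 co-receptors and genes of the R-spondin system and Wnt secretion, 0 passed as well, with 3 probes lower and 8 higher at an unadjusted p below 0.05 and a median of 0.013 over 31 probes.

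Of 43 other genes known as Wnt targets in several tissues, 6 were lower and 0 were higher, with a median of -0.027 over 66 probes. Dkk1, a secreted inhibitor that binds the co-receptors Lrp5 and Lrp6, was lower in both probes, with mean log2 ratios of -2.25 (adjusted p = 0.00653) and -1.52 (adjusted p = 0.0201). The larger of these differences was similar on each array, with -2.36, -2.35 and -2.05. Dll1, a ligand of Notch, had -0.69, -1.21 and -1.34, with a mean of -1.08 (adjusted p = 0.0497). Notum, an enzyme that inactivates Wnt proteins outside the cell, had a mean of -0.92, but its probe was well above background in 1 Fgfrl1-/- pool only. The transcription factor Mycn had -0.88 in a probe that passed and -0.50 (adjusted p = 0.113) in its other probe. The kelch protein Enc1 likewise had -0.70 in one probe and -0.24 (adjusted p = 0.216) in the other. The growth factor Fgf9, with 1 probe, had -0.65. At an unadjusted p below 0.05, 16 probes of this list were lower and 7 higher. The fall among target genes was thus not shared by the list as a whole, and 6 of its genes were not well above background in any pool.

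The list of genes that Wnt9b and beta-catenin induce in nephron progenitors had 7 of 14 genes lower and 0 higher, with a median of -0.45 over 21 probes. Its probes with an unadjusted p below 0.05 were 14, all of them lower. Wnt4, the ligand that turns the mesenchyme into epithelium, fell by 2.40 on the log2 scale (adjusted p = 0.0201), with -2.09, -2.34 and -2.77 on the arrays. Fgf8, a growth factor for nascent nephrons, fell by 2.05 in one probe, while its other probe, well above background in 1 Fgfrl1-/- pool, had -0.39 (adjusted p = 0.0881). Lhx1, a homeobox factor of the renal vesicle, fell by 1.88 and 1.72 in its probes. The homeobox factor Uncx fell by 1.15 in one probe and had -0.43 (adjusted p = 0.20) in the other. C1qtnf12 and Cited1 fell by 1.14 and 0.78. These genes were in part known from the study of the same kidneys, and the list is not independent evidence of its direction.

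**Figure D4:**
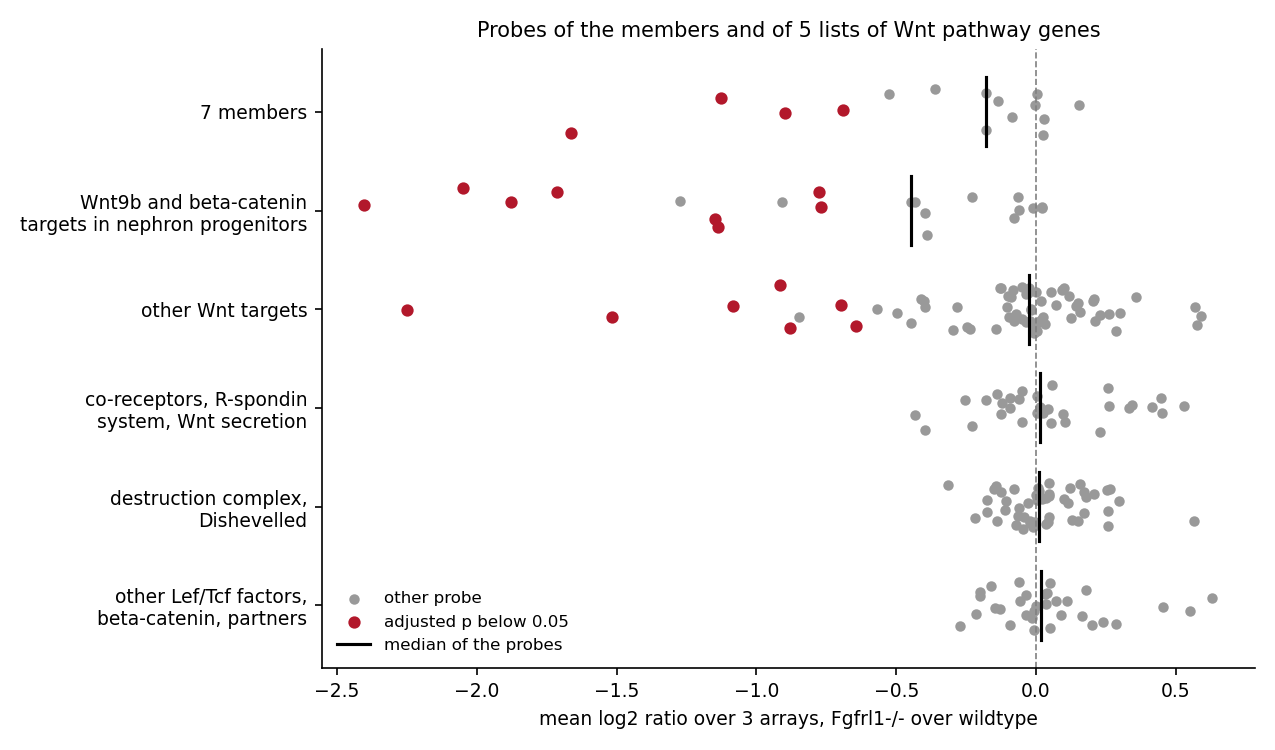
Each point is the mean log2 ratio of 1 probe over 3 arrays (x axis), for the 7 members and 5 lists of pathway genes, with probes at an adjusted p below 0.05 in red and the median of each list as a black bar. Red points lie below 0 in 3 rows, the members, the kidney targets and the other Wnt targets, while the lists of surface, destruction complex and nuclear genes hold none.

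The genes most like the called members were sought by the distance between their 3 ratios, among 16366 genes whose brightest probe was well above background in all wildtype pools. For Lef1 they were Cck, a peptide hormone, with -0.78, -1.36 and -1.19, then Dll1 and the transporter Slco4c1, at distances of 0.11, 0.14 and 0.28 on the log2 scale. For Sp5 they were the Wnt receptor Fzd10 with -0.84, -1.80 and -1.71, the retinaldehyde dehydrogenase Aldh1a1, and Fgfrl1 itself. Their distances of 0.37, 0.50 and 0.56 were larger than those for Lef1, so that the likeness was looser. Fgfrl1, the deleted gene, had -1.21, -1.51 and -1.83 (limma adjusted p = 0.0332). For Tcf7, the 3 nearest were 2610002D18Rik, 9330154J02Rik and Fdps, an enzyme of isoprenoid synthesis, at distances of 0.058, 0.065 and 0.076. With 3 arrays, such likeness is a description only.

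Markers of several cell types moved beside the members. Of 15 genes of the renal vesicle and pretubular aggregate, 10 were lower and 0 higher, with a median log2 ratio of -1.0 over 22 probes. The mean log2 level of this list ran from 8.04 to 8.30 in the Fgfrl1-/- pools and from 9.27 to 9.40 in the wildtype pools. Of its lower genes, Wnt4, Fgf8, Lhx1, Uncx, Dkk1 and Dll1 belong to a target list as well. So do its genes Pax8, Jag1 and Ccnd1, which did not pass. Of 14 measured cap mesenchyme genes, Itga8, Gdnf and Cited1 were lower, with a list level of 10.07 to 10.08 against 10.26 to 10.44. Cited1 is also among the kidney targets above. At an unadjusted p below 0.05, 10 of the 21 probes of the cap list were lower and 0 higher, with a median log2 ratio of -0.14. The cap marker Six2 had -0.05 (adjusted p = 0.897) and Wt1 -0.11 (adjusted p = 0.584). The probes of Eya1, also a cap marker, had -0.42 and -0.33 (adjusted p = 0.194 and 0.179).

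Stroma and ureteric epithelium moved the other way in part. Of 18 stromal genes, 4 were higher and 0 lower, among them Foxd1 with 0.78, and the list level was 12.22 to 12.58 against 11.94 to 12.01. Of 18 genes of the ureteric bud and its derivatives, Cdh16, Tfcp2l1 and Krt8 were higher and Wnt11 was lower. The list level was 10.15 to 10.45 against 9.91 to 10.10, and the probe of Ret was not well above background in any pool. In the paper's quantitative PCR at E12.5, neither Tfcp2l1 nor the stromal gene Col1a1 was higher in the Fgfrl1-/- kidneys, although both passed here. The Col1a1 probes had mean log2 ratios of 0.84, 0.95 and 0.04 (limma adjusted p = 0.0416, 0.0591 and 0.921). Of 13 macrophage genes, C1qa was higher, with a list level of 8.57 to 8.99 against 8.21 to 8.32. At an unadjusted limma p below 0.05, 16 of the 34 stromal probes were higher and 1 lower. Of the 26 ureteric probes 14 were higher and 2 lower, and of the 23 macrophage probes 15 were higher and 0 lower. The median log2 ratios of the stromal, ureteric and macrophage lists were 0.27, 0.29 and 0.44. The lists of endothelium, erythroid cells, gonad and adrenal, neural crest and neuron, and muscle had 0 genes that passed limma's test, with medians of -0.034, -0.072, 0.014, 0.012 and 0.036. Their probes at an unadjusted p below 0.05 were 1 of 27, 3 of 17, 3 of 18, 3 of 19 and 2 of 19, against 15.9% of all probes. The part of these shifts in the lower levels of Sp5, Lef1 and Tcf7 was not tested.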

How the data were processed

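Median spot and local background intensities of both channels were read from the scanner output that the authors deposited for 3 Agilent arrays, made per the file headers with Agilent Feature Extraction, release 9.5.3.1 (array 1) or 10.5.1.1 (both others). The deposited log10 ratios of the scanner software and the log2 table of the authors served as alternatives. The log2 table was found to run as Fgfrl1-/- over wildtype, with medians of -0.018, 0 and 0.003 per array, while the steps behind it are not given in the sources used here. The median intensity was 60 to 97 in the Fgfrl1-/- channel and 99.5 to 113 in the wildtype channel, and 57.7% to 80.5% of spots were well above background. The number of arrays limits the precision.

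With limma 3.58.1 in R 4.3.3, intensities were corrected by normexp with an offset of 50, normalized by loess within each array, freed of 1639 control spots and of outlier spots, and averaged per probe. The log2 ratio of 41174 probes was tested against 0 (lmFit, eBayes, 2-sided, with Benjamini-Hochberg adjustment over all probes, threshold 0.05). A gene counted if any probe passed. Channel levels followed quantile normalization of average intensity (Aquantile). The fit was tested on simulated data. The pools of an array are paired by hybridization, which the ratio uses, and labels give no other block. Whether the pools stem from separate litters is not stated. The p-values therefore measure the spread between these 3 arrays, in which pool, slide and software version are mixed.

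Probe positions are those of the files on mm8, for which no annotation was used, and exons, introns and UTRs are therefore not given. Gene names are those of the files. RefSeq symbols of GRCm38.p6 were used for the lists. Members, gene lists and tests were chosen with earlier results of these data known. Named were all members with each probe, up to 6 genes per pathway list that passed, the 3 nearest genes of each called member, and markers of reported lists. Of 17 alternatives, 1, the quantile normalization of both channels, was chosen after seeing the data.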

Additional observations from a re-analysis of the deposited data

How the results depend on the processing

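The log2 ratios of Sp5, Tcf7 and Lef1 probes 1 and 2 were below 0 under all alternatives in which they were tested, but their calls were not stable. Members called lower numbered 3 as reported, 0 with a normexp offset of 0, with the scanner software's ratio, with dim probes left out and with trend and robust variances, and 1 with the mean of the probes and with the authors' log2 table. They numbered 2 with median centring and with quantile normalization of both channels, where Tcf7 probe 1 had an adjusted p of 0.103 and 0.059, and 4 with slide as a fixed block, which added Apcdd1. With each array left out they numbered 0 to 4, and members called higher 0 to 1. With the offset of 0 and the scanner ratio, limma called 0 probes of any gene, with 4852 and 6118 at an unadjusted p below 0.05.

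Other pathway genes called lower numbered 6 as reported, 0 with the offset of 0 and the scanner ratio, 3 with median centring and with quantile normalization of both channels, 2 with dim probes left out and with the authors' table, 1 with trend and robust variances, 25 with slide as a fixed block and 0 to 28 with an array left out. Those called higher were 0 as reported and 2 in the separate-channel fit without the replicate block. They numbered 30 with the slide block and 0 to 20 with an array left out. The separate-channel fit ties the pools of an array through an estimated correlation of 0.45 within spots, in place of the array ratio. Kidney targets called lower numbered 7 as reported, 0 with the offset of 0 and the scanner ratio, 1 with trend and robust variances, 4 with the authors' table, 12 with the slide block and 0 to 12 with an array left out. The slide block and the fit without array 1 take their spread from arrays 2 and 3 alone. In the separate-channel fit without the block, Sp5 and Lef1 were called (3 members as reported, 2 here) and Tcf7 probe 1 had an adjusted p of 0.0663.

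Signs turned for 4 probes whose reported ratios lay between -0.09 and 0.03. Tcf7l2 probe 1 (-0.003 as reported) was 0.006 without background subtraction, 0.079 with the scanner ratio, 0.022 with the mean of the probes, 0.093 with the slide block, 0.003 in the authors' table and -0.194 to 0.121 with an array left out. Nkd1 probe 1 (0.005) was -0.003 with the offset of 0, -0.105 with the scanner ratio, -0.328 with median centring, -0.024 with quantile normalization of both channels, -0.087 with the mean of the probes, -0.017 in the authors' table and -0.134 to 0.09 with an array left out. Tcf7l2 probe 3 was 0.006 with median centring, and Lef1 probe 3, which is dim, was -0.03 to 0.07 with an array left out. Except where stated, the cause was not tested. The ratio of Sp5 ran from -2.63 to -1.49 and that of the dim Apcdd1 probe 2 from -0.93 to -0.06.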
